A study of Homo sapiens with 60 samples.

Results

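The genes described here are 10 enzymes that make serine, one-carbon units, asparagine and proline: PHGDH, PSAT1, PSPH, SHMT2, MTHFD2, ALDH1L2, ASNS, ALDH18A1, PYCR1 and PCK2. They were taken by name as synthesis enzymes of these pathways, with earlier results of these data known. They were matched by Ensembl identifier and are 10 of the 60675 gene identifiers in the count table. All 10 passed the low-count filter and were among the 17268 genes tested. Their levels were followed in A549 cells, a human lung carcinoma line, after 24 h with herbal water extracts or vehicle.

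Serine is made from a glycolytic intermediate by PHGDH, PSAT1 and PSPH in turn. SHMT2 then splits serine in mitochondria into glycine and a one-carbon unit on folate, which MTHFD2 and ALDH1L2 oxidise further, and these units serve the synthesis of nucleotides and of methionine. ASNS makes asparagine from aspartate, ALDH18A1 and PYCR1 make proline from glutamate, and PCK2 makes phosphoenolpyruvate in mitochondria. Most of these genes are known targets of ATF4, the transcription factor that cells translate when amino acids run short or the integrated stress response is switched on by other means. The labels name RPMI as the culture medium, which itself contains serine, glycine, asparagine and proline.

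The series holds 60 libraries in 22 groups. Vehicle (3 libraries) was 0.1% DMSO by the sample labels and 2% by the design text, and the labels name DMSO for the vehicle alone. Water extracts of Citri Unshius Pericarpium, Cimicifugae Rhizoma, Bupleuri Radix, Yijung-tang and Banhasasim-tang were given at 500, 100 and 20 µg/mL (high, medium and low dose). Aconiti Lateralis Radix Preparata, called Aconiti from here on, was given at 360, 72 and 14.4 µg/mL. By the design text, an extract with an IC20 below 500 µg/mL was given at its IC20 and at dilutions of it, so the dose labels of Aconiti and the other extracts do not stand for equal concentrations. Each of these groups had 3 libraries, while Bojungikgi-tang had 1 library at each of 500, 100 and 20 µg/mL and was not tested. The titles give the same batch name, BatchB, to all 60 libraries, vehicle included. The set label used here is the leading part of each sample code, and the labels do not say what it stands for. By this code Cimicifugae Rhizoma falls with Citri Unshius Pericarpium, Bupleuri Radix with Aconiti, and Yijung-tang with Banhasasim-tang. No extract has the code of vehicle. Set and extract therefore cannot be told apart against vehicle, whereas comparisons between doses stay within a set. The labels do not say that replicates were separate cultures, so p-values measure only the spread between these libraries. In bulk RNA, a change in fewer cells and a smaller change per cell cannot be told apart.

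Library totals ran from 17793655 to 30188211 expected counts, with a median of 25758912. Levels are given in CPM, counts scaled to a library of 1000000. All 8 markers of a lung epithelial tumour line reached 1 CPM. Among markers of other cells, CD3E was at 0 in every library, CD14 lay between 0.696 and 2.78 CPM, none of 3 endothelial markers reached 1 CPM, and among 5 fibroblast markers DCN and PDGFRB reached at most 0.274 and 0.303 CPM while COL1A1 lay between 12.3 and 44 CPM. The summed fibroblast markers were 34.3 to 35.4 CPM in vehicle, 20.9 to 24.9 at the high dose of Aconiti, 14.1 to 14.4 at the medium and 17.1 to 18.5 at the high dose of Yijung-tang, and 32.1 to 36.5 at the medium dose of Aconiti. They were thus lower, without overlap, in 3 of these 4 extract groups, in all of which members rose, and their part in those results was not tested. Libraries also differed in the balance between long and short transcripts, taken as the mean log2 CPM of 2647 genes over 6 kb less that of 1099 genes under 1.5 kb. It was 1.088 to 1.311 in vehicle and 0.005316 in Citri Unshius Pericarpium medium replicate 1, the library farthest from the rest. Mitochondrially encoded genes took 8.30% ± 0.342 (SD, n = 3) of counts in vehicle, 14.1% ± 0.983 at the medium and 17.5% ± 1.31 at the high dose of Aconiti, and 7.62% ± 1.33 at the medium dose of Yijung-tang. With those genes removed before scaling, the counts of called members in these Aconiti groups against vehicle were the same 9 and 9.

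Promoter sequence was at hand for 6 of the 10 genes (ASNS, PHGDH, PSAT1, MTHFD2, ALDH18A1 and PCK2), as the 250 bases before the RefSeq start on GRCh38.p14. The 3 shown are those of ASNS and PSAT1, which rose in all 5 tested groups where any member did, and of ALDH18A1, which passed the test in none. Capitals mark TGATGNAA, GTTACA and CCAAT, which were searched on both strands and share no bases with each other here. The first pair are the letters of the amino acid response elements known from the ASNS promoter, and CCAAT is a common promoter box.
ASNS, chr7:97872409-97872658, minus strand: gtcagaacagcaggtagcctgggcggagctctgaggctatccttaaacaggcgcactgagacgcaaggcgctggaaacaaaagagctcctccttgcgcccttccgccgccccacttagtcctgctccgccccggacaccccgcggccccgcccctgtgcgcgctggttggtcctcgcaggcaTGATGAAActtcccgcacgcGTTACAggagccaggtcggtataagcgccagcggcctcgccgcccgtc
PSAT1, chr9:78296875-78297124, plus strand: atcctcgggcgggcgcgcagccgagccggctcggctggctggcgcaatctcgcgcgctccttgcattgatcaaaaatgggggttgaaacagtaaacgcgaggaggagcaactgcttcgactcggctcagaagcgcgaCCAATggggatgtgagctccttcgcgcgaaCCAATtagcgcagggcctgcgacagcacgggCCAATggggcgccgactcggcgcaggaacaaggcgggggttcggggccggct
ALDH18A1, chr10:95656712-95656961, minus strand: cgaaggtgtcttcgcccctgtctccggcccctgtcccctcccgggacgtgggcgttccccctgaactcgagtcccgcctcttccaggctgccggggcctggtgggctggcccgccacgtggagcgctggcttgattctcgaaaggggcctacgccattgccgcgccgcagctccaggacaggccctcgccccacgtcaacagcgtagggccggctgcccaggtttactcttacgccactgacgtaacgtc
Positions are counted in bases from the start, with a minus sign before it. ASNS held TGATGNAA at -68 to -61 and GTTACA at -48 to -43. A second RefSeq start of ASNS, with the window chr7:97872166-97872415, held none of the 3 motifs. PSAT1 held CCAAT beginning at -113, -83 and -52, MTHFD2 at -184 and -74, PHGDH at -71 and PCK2 at -193. The ALDH18A1 window held none of the 3. Over 35116 RefSeq promoter windows of this length, 3.14% held TGATGNAA, 5.59% GTTACA and 32% CCAAT, so a CCAAT match is common. A match describes letters in the window and says nothing of binding. PSPH, SHMT2, ALDH1L2 and PYCR1 are not shown.

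**Figure D1:**
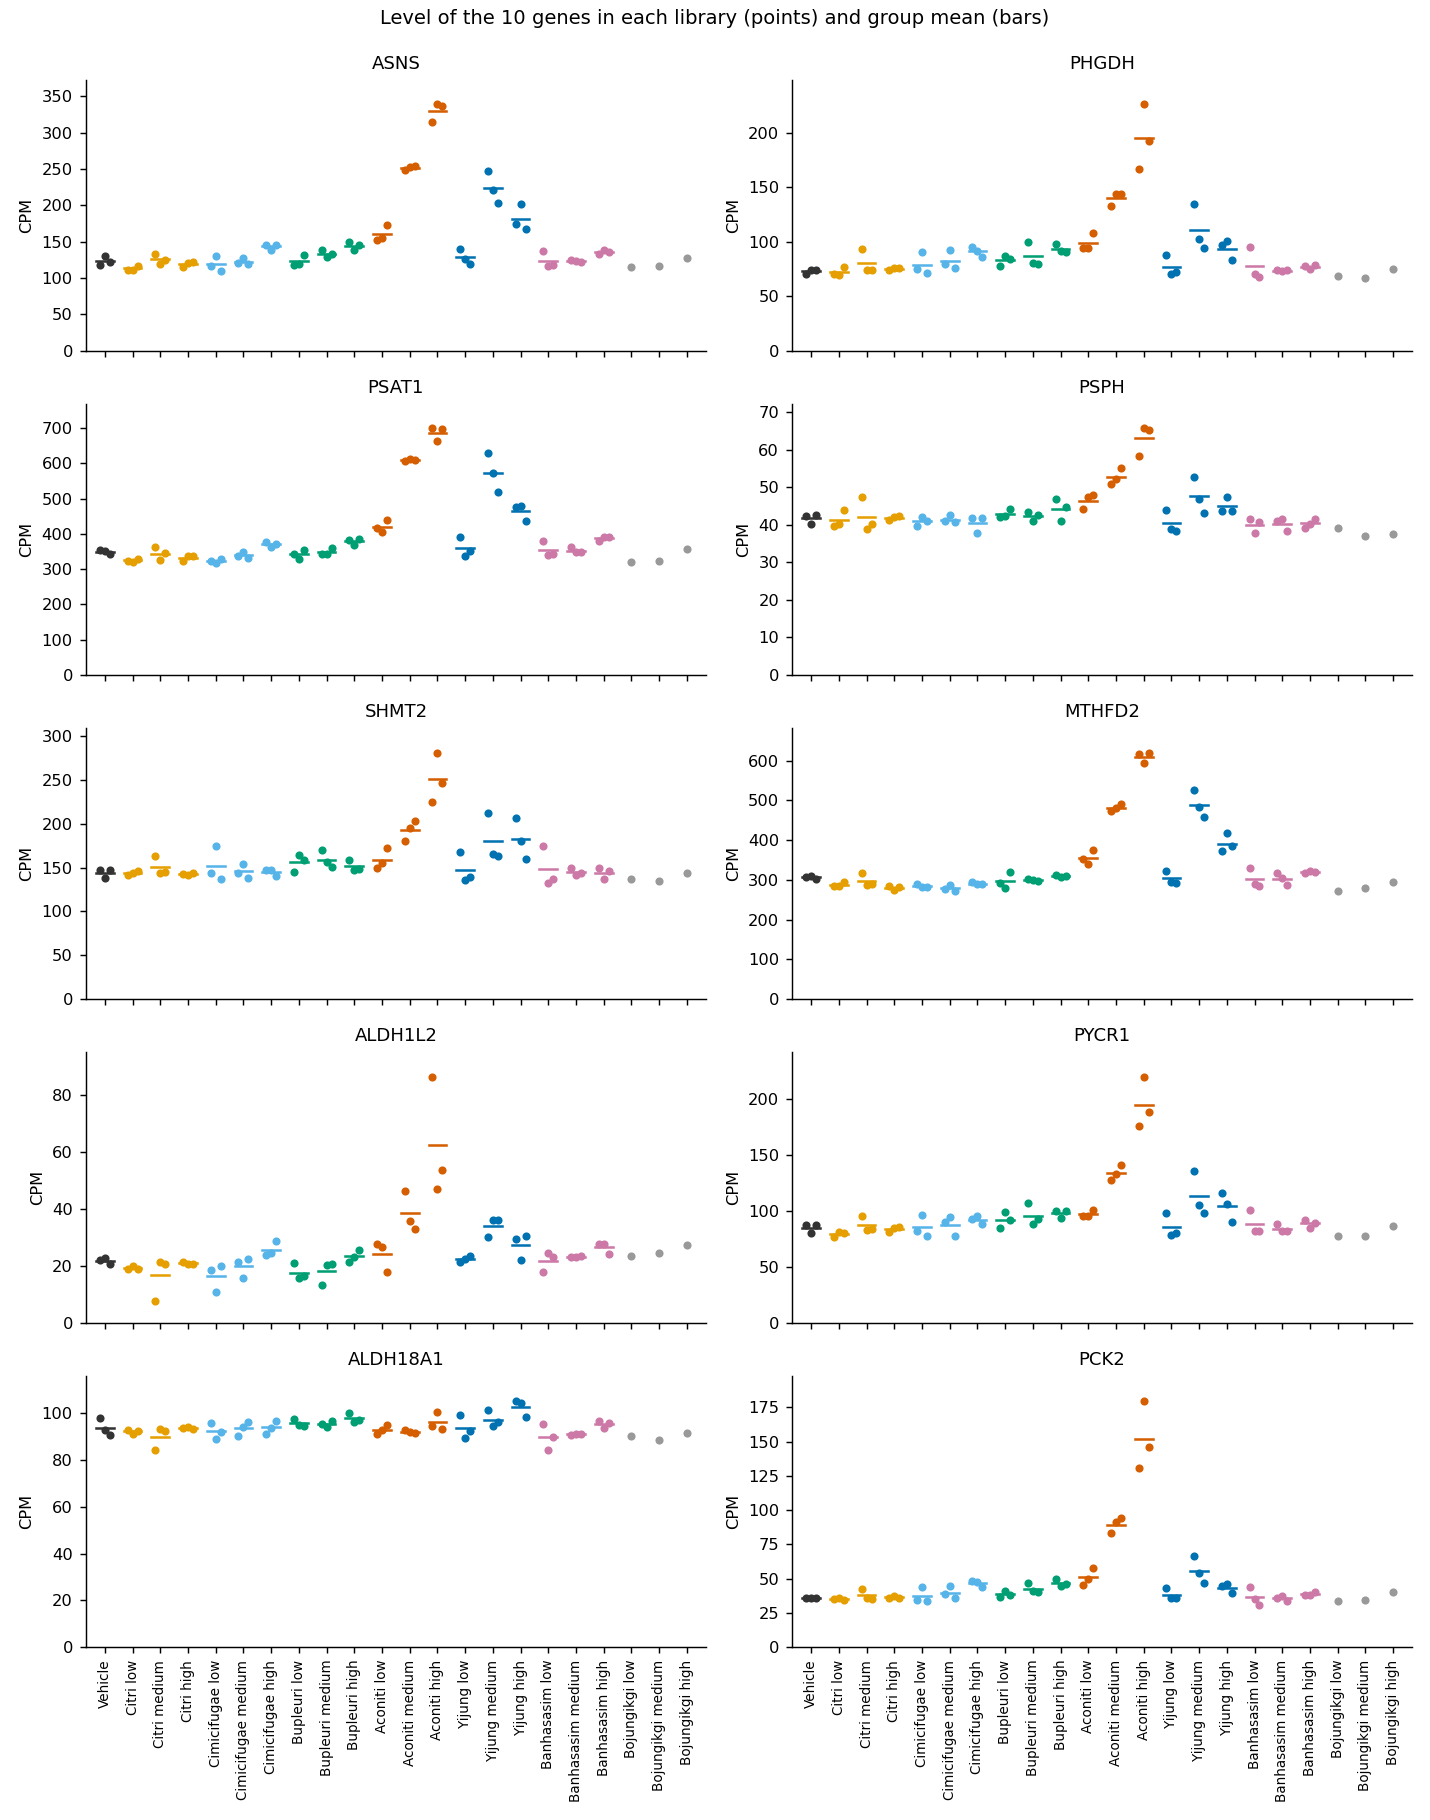
Level of each of the 10 genes in CPM (vertical axis, from 0) in each library (points) and the mean of each group of 3 (bars), for vehicle and every extract and dose; extracts are named by the first word of their names, and Bojungikgi has 1 library per dose. In 9 panels the Aconiti high dose has the highest mean, and in the ALDH18A1 panel the groups lie close together.

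Members rose with 2 of the extracts, Aconiti and Yijung-tang, and ALDH18A1 did not pass with either in the shared edgeR fit, though at the high dose of Yijung-tang it did by DESeq2 (adjusted p = 0.0262). At 360 µg/mL Aconiti 9 members rose and none fell, against 17% of all genes tested that rose, and their log2 folds over vehicle had a median of 1.09 against -0.0046 over all genes. At 72 µg/mL the same count of 9 rose (1.64% of all genes), with a median log2 fold of 0.73. At 100 µg/mL Yijung-tang 7 rose (4.01% of all genes) with a median of 0.62, and at 500 µg/mL 4 rose (3.76%) with a median of 0.33. A gene is said to have risen or fallen where edgeR's quasi-likelihood test gave a Benjamini-Hochberg adjusted p below 0.05 over all genes tested. All comparisons against vehicle share the same 3 vehicle libraries. The members were chosen with earlier results of these data known, so the shares of all genes beside their counts serve as description. The 3 libraries of a group did not overlap with vehicle and lay above it for 9 members at each of these 4 doses, against 20.9%, 15.3%, 13.4% and 12.3% of all genes in the same order of doses. The 9 were not the same genes throughout. At the high dose of Yijung-tang they included ALDH18A1 (98.28 to 105.4 CPM, vehicle up to 98.06). ALDH1L2 was left out there (22.2 to 30.51 CPM, vehicle up to 22.85), and ALDH18A1 at each other dose.

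**Figure D2:**
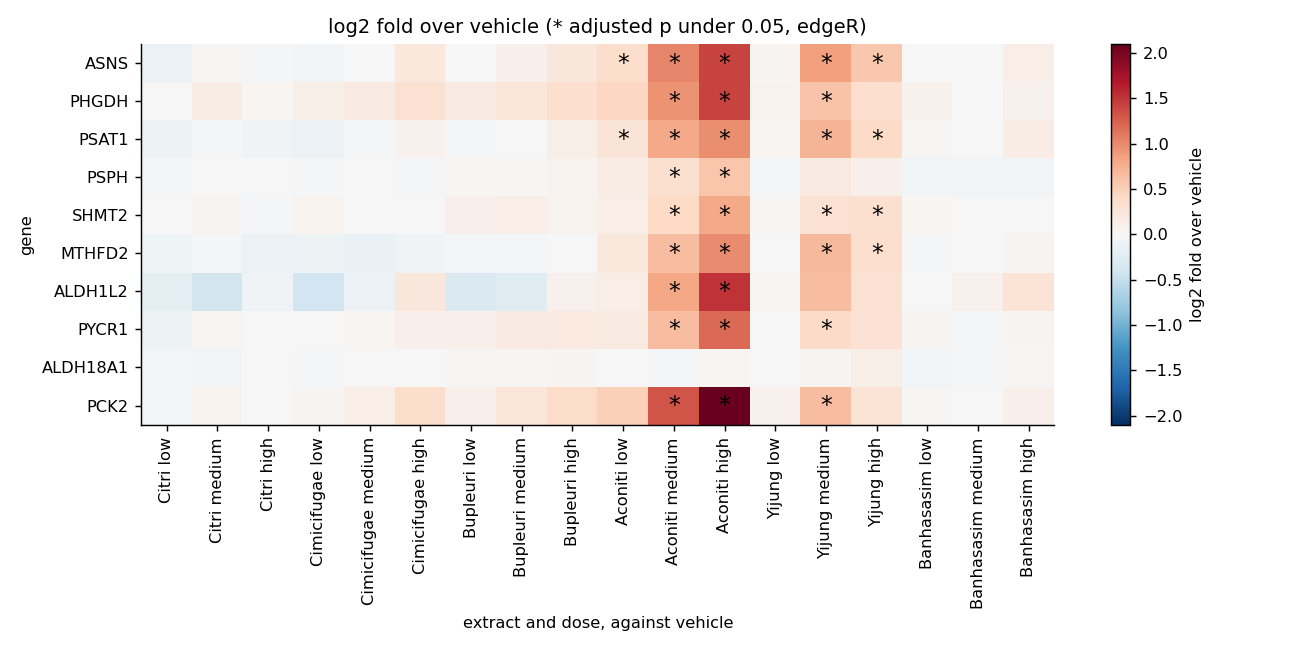
Log2 fold over vehicle (colour scale) of each gene (rows) at each dose of 6 extracts (columns); stars mark an adjusted p under 0.05 by edgeR. Colour is deepest in the Aconiti medium and high columns, with 9 stars in each, and no star stands outside the Aconiti and Yijung-tang columns.

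In the serine pathway all 3 enzymes rose at the high and medium doses of Aconiti, and the first 2 of them rose at the medium dose of Yijung-tang. PHGDH (chromosome 1, 119648411 to 119744226, plus strand, GRCh38) oxidises 3-phosphoglycerate in the first step. Its levels in vehicle were 70.57, 73.97 and 73.83 CPM, and at the high dose of Aconiti they were 166.7, 226.1 and 192.8 CPM. The groups did not overlap, and PHGDH rose 2.68-fold (95% interval 2.28 to 3.15; edgeR adjusted p = 4.41e-13). At the medium dose it was 132.7, 143.9 and 143.6 CPM, a rise of 0.94 ± 0.12 on the log2 scale (standard error, SE; adjusted p = 2.37e-07). At the low dose its 94.45, 94.54 and 107.8 CPM lay above every vehicle library, with a log2 fold of 0.44 that did not pass (adjusted p = 0.319). Under Yijung-tang its medium dose gave 134.6, 102.1 and 94.53 CPM, a log2 rise of 0.60 (adjusted p = 0.000331). Its high dose gave 97.01, 100.5 and 82.86 CPM, also above vehicle, but did not pass (log2 fold 0.36, adjusted p = 0.0518). Several alternatives called it: without Yijung-tang high replicate 3 the adjusted p was 0.0245, by DESeq2 0.0312, with RLE scaling 0.0464, without mitochondrially encoded genes 0.0485, with the replicate block 0.0475, with only the libraries compared 0.0379, without Citri Unshius Pericarpium medium replicate 1 0.0298 and with a term for the length balance 0.00205.

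PSAT1 (chromosome 9, 78297143 to 78330093, plus strand) is the aminotransferase of the second step, and its replicates lay close together. Vehicle stood at 354.2, 351.3 and 342.7 CPM. Aconiti gave 698.8, 663 and 698.4 CPM at the high, 605.9, 611.2 and 608.7 CPM at the medium and 416.9, 406.4 and 438.1 CPM at the low dose. Each dose lay clear of the next, and all 3 rises passed: log2 folds of 0.97, 0.80 and 0.27 (SE 0.054 each, adjusted p = 1.2e-18, 5.95e-15 and 0.0185). The low-dose call of PSAT1 was lost when any 1 of Aconiti low replicates 1 and 3 and vehicle replicates 1, 2 and 3 was left out, with adjusted p from 0.0683 to 0.368. Yijung-tang gave 628.9, 571.6 and 518.5 CPM at the medium and 475, 480.1 and 437.3 CPM at the high dose, so the medium dose was the higher. These were log2 rises of 0.71 and 0.41 (adjusted p = 1.22e-13 and 2.8e-07).

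PSPH (chromosome 7, 56011051 to 56051604, minus strand), the phosphatase that releases serine, had the smallest fold of the 9 at the high dose of Aconiti. It went from 42.48, 40.35 and 42.68 CPM in vehicle to 58.32, 65.72 and 65.19 CPM at the high dose of Aconiti, with no overlap and a rise of 1.51-fold (95% interval 1.38 to 1.65; adjusted p = 2.22e-09). At the medium dose the log2 rise was 0.33 ± 0.068 (adjusted p = 0.00179). With Yijung-tang at the medium dose its log2 fold of 0.19 did not pass (adjusted p = 0.0783), although 52.86, 46.93 and 43.15 CPM all lay above vehicle. It passed without Yijung-tang medium replicate 3 (adjusted p = 0.0187), by DESeq2 (0.0442) and without Citri Unshius Pericarpium medium replicate 1 (0.0334).

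The mitochondrial one-carbon enzymes rose as a group with Aconiti, but ALDH1L2 varied far more between libraries than MTHFD2. MTHFD2 (chromosome 2, 74198562 to 74217565, plus strand) oxidises methylene-tetrahydrofolate. It went from 307.4, 309.9 and 301.5 CPM in vehicle to 616, 594.6 and 620.5 CPM at the high and 472.2, 481.2 and 492.2 CPM at the medium dose of Aconiti. Neither dose overlapped with vehicle, and the rises were 1.99-fold (95% interval 1.85 to 2.15; adjusted p = 1.2e-18) and 1.57-fold (1.46 to 1.7; adjusted p = 6.49e-12). With Yijung-tang it stood at 525.7, 483.1 and 458.6 CPM at the medium dose, a log2 rise of 0.68 beside 0.65 for Aconiti at its medium dose. The direct difference, Aconiti less Yijung-tang, was -0.022 ± 0.055 (adjusted p = 0.863; 95% interval of the fold 0.914 to 1.06).

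SHMT2 (chromosome 12, 57229327 to 57234935, plus strand), which moves a carbon from serine to folate, had 146.9, 138.4 and 147.7 CPM in vehicle and 224.7, 281.3 and 247 CPM at the high dose of Aconiti. It rose 1.74-fold there (95% interval 1.52 to 1.99; adjusted p = 1.6e-08), without overlap. At the medium dose the log2 rise was 0.42 (adjusted p = 0.00997), a call that ended without Aconiti medium replicate 3 (adjusted p = 0.0741) or vehicle replicate 2 (adjusted p = 0.0753). In Yijung-tang the libraries were spread, with 212.3, 166 and 163.6 CPM at the medium and 206.2, 180.9 and 160 CPM at the high dose. Both rises passed (log2 0.32 and 0.34, adjusted p = 0.0297 and 0.024). The medium-dose call ended without vehicle replicate 1, 2 or 3 or Yijung-tang medium replicate 1 (adjusted p from 0.0612 to 0.345), and the high-dose call without vehicle replicate 1, 2 or 3 or Yijung-tang high replicate 1 or 2 (from 0.0514 to 0.197). With only the libraries compared, both the medium-dose and the high-dose call ended (adjusted p = 0.09 and 0.0817).

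ALDH1L2 (chromosome 12, 105019784 to 105084577, minus strand) is the mitochondrial enzyme that oxidises formyl-tetrahydrofolate to carbon dioxide. It went from 21.93, 22.85 and 20.68 CPM in vehicle to 86.25, 47.01 and 53.53 CPM at the high dose of Aconiti. The lowest Aconiti library was above the highest vehicle library, and the rise was 2.85-fold (95% interval 2.1 to 3.86; adjusted p = 7.7e-07). At the medium dose 46.22, 35.85 and 33.05 CPM gave a log2 rise of 0.81 ± 0.22 (adjusted p = 0.0376). That call ended without Aconiti medium replicate 1 or 2 or any 1 vehicle library, with adjusted p from 0.08 to 0.197. Under Yijung-tang its medium dose gave 30.21, 36.03 and 36.18 CPM, all above vehicle, with a log2 fold of 0.64 that missed the threshold (adjusted p = 0.0709). It was past it without the low-count filter (0.0419), with only the libraries compared (0.00362), without Citri Unshius Pericarpium medium replicate 1 (0.0178) and with a term for the length balance (3.62e-14). NOPCHAP1 lies on the opposite strand over part of ALDH1L2 with a median of 18.6 CPM, and the strand setting of the counting is not given in the sources used here, so reads of the pair may be mixed. The genes on the opposite strand over SHMT2, MTHFD2 and PCK2 were NDUFA4L2, SLC4A5 and NRL, with medians of 1.71, 1.65 and 0.571 CPM.

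The spread of ALDH1L2 between replicates went with the balance between long and short transcripts. In 17 of 19 groups the library with the lowest balance was also the lowest of its group for ALDH1L2. Citri Unshius Pericarpium medium replicate 1 had 7.77 CPM of ALDH1L2 beside 21.54 and 20.69 CPM in its replicates, and Cimicifugae Rhizoma low replicate 2 had 10.85 CPM beside 18.54 and 20. Other members leaned the opposite way: the lowest-balance library was the highest of its group for PCK2 in 17 groups, for PHGDH and SHMT2 in 16 each, and for ASNS and PSPH in 15 each. ALDH18A1 went neither way, being highest in 7 and lowest in 6. Aconiti high replicates 2 and 3 were among the lowest-balance libraries (0.585 and 0.6399). With the balance as a term, the log2 fold at the high dose of Aconiti was 1.94 in place of 1.51 for ALDH1L2, 1.21 in place of 1.42 for PHGDH and 1.87 in place of 2.08 for PCK2, and 9 members were called as before. What moves the balance was not tested.

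**Figure D3:**
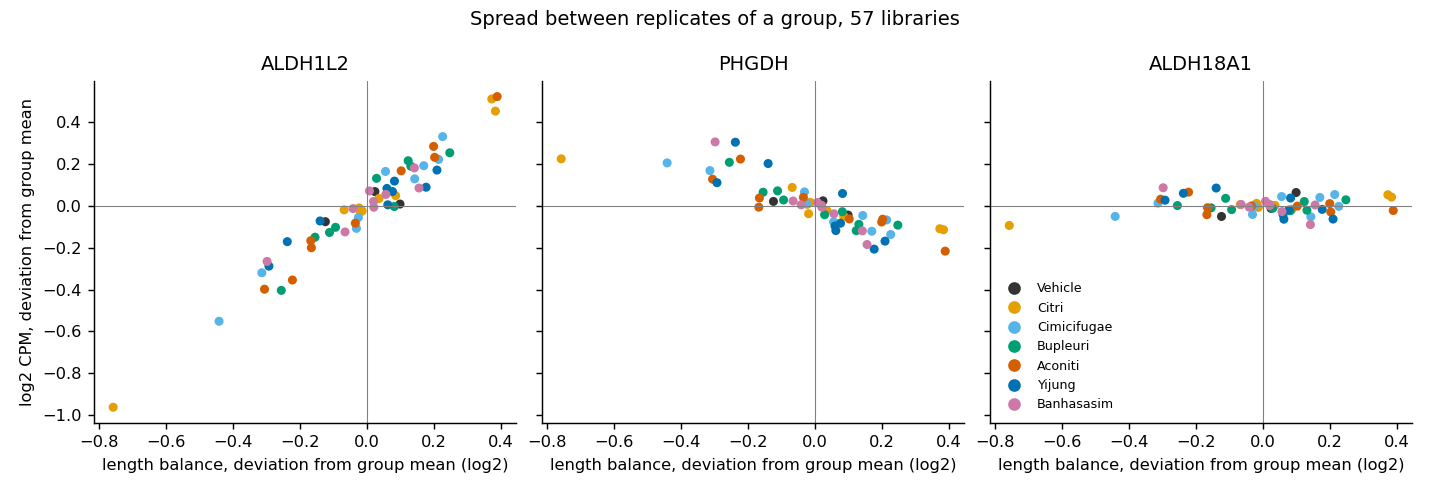
For 57 libraries, the deviation of log2 CPM from the mean of the library's group (vertical axis) against the deviation of the length balance from the same group mean (horizontal axis, log2), for ALDH1L2, PHGDH and ALDH18A1. ALDH1L2 is lowest at low balance, PHGDH tends the other way, and ALDH18A1 stays near 0; points within a group are replicates that share a mean.

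Asparagine synthesis moved with the serine enzymes. ASNS (chromosome 7, 97852118 to 97872542, minus strand), the only human asparagine synthetase, went from 118.2, 130.4 and 121.4 CPM in vehicle to 314.8, 338.9 and 336.6 CPM at the high dose of Aconiti. The medium dose gave 249.1, 252.2 and 253.5 CPM and the low dose 152.8, 154.6 and 172.4 CPM. Each dose lay above the one below it and above vehicle without overlap. The rises were 2.68-fold (95% interval 2.43 to 2.95; adjusted p = 4.2e-20), 2.04-fold (1.85 to 2.25; adjusted p = 1.07e-14) and 1.3-fold (1.18 to 1.43; adjusted p = 0.00911). The low-dose call of ASNS ended without Aconiti low replicate 3 (adjusted p = 0.309), vehicle replicate 1 (0.145) or vehicle replicate 3 (0.0856). With Yijung-tang, ASNS stood at 247.9, 221.8 and 202.6 CPM at the medium dose, at 174.9, 201.6 and 167.2 CPM at the high dose and at 139.9, 126.5 and 119.7 CPM at the low dose. The medium dose was thus the highest of the 3 (log2 rise 0.86 ± 0.071, adjusted p = 1.37e-12), above the high dose (0.56, adjusted p = 1.36e-07), and the low dose overlapped with vehicle (0.061, adjusted p = 1).

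The enzymes of proline synthesis split. PYCR1 (chromosome 17, 81932384 to 81942412, minus strand), the reductase of the last step, had 87.67, 80.25 and 87.55 CPM in vehicle, 175.8, 220.1 and 188.7 CPM at the high and 127.7, 133 and 141.5 CPM at the medium dose of Aconiti. It rose 2.29-fold (95% interval 1.99 to 2.63; adjusted p = 1.05e-12) and 1.57-fold (1.37 to 1.81; adjusted p = 2.75e-05), with no overlap. At the medium dose of Yijung-tang PYCR1 rose by 0.41 on the log2 scale (adjusted p = 0.00533). That call ended without Yijung-tang medium replicate 1 (adjusted p = 0.15) and with only the libraries compared (0.0608).
ALDH18A1 (chromosome 10, 95605929 to 95656706, minus strand), which carries out the first steps from glutamate, had 98.06, 93.06 and 90.59 CPM in vehicle and 94.79, 100.7 and 93.49 CPM at the high dose of Aconiti. These overlapped, and the fold of 1.03 had a 95% interval of 0.964 to 1.09, so a rise of the size of PYCR1 lies outside it (adjusted p = 0.575). Its highest group was Yijung-tang at the high dose, with 105.4, 104.6 and 98.28 CPM, all above vehicle. That difference did not pass (log2 fold 0.13 ± 0.045, adjusted p = 0.0748), but did by DESeq2 (adjusted p = 0.0262), with a term for the length balance (0.0209), without Yijung-tang high replicate 3 (0.036) and without Citri Unshius Pericarpium medium replicate 1 (0.036).

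PCK2 (chromosome 14, 24094053 to 24110598, plus strand) had the largest fold of the 10 at each dose of Aconiti, but not with Yijung-tang. From 35.86, 35.81 and 36.18 CPM in vehicle it went to 130.5, 179.8 and 145.7 CPM at the high dose, 83.54, 90.97 and 93.91 CPM at the medium dose and 45.47, 49.47 and 58.11 CPM at the low dose of Aconiti. All 9 Aconiti libraries lay above vehicle and the doses did not overlap. The rises were 4.23-fold (95% interval 3.6 to 4.97; adjusted p = 2.28e-18) and 2.49-fold (2.12 to 2.92; adjusted p = 3.02e-11) at the high and medium doses, and the low-dose log2 fold of 0.50 did not pass (adjusted p = 0.102). With Yijung-tang at the medium dose PCK2 stood at 66.58, 53.98 and 47.14 CPM, a log2 rise of 0.64 ± 0.12 (adjusted p = 0.000123). At its high dose, 44.87, 45.91 and 39.57 CPM were also above vehicle but did not pass (log2 fold 0.28, adjusted p = 0.172).

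The 2 extracts differed in how the genes followed dose. With Aconiti, 9 members were higher at the high than at the medium dose (6.24% of all genes), 9 at the high than at the low dose (11.4%) and 6 at the medium than at the low dose (0.429%). The log2 rise at 72 µg/mL was from 52.4% (SHMT2) to 82.1% (PSAT1) of that at 360 µg/mL, and at 14.4 µg/mL from 9.33% (ALDH1L2) to 31.1% (PHGDH). ALDH1L2 and SHMT2 were the members whose step from medium to high rested on single libraries. ALDH1L2 was not called without Aconiti high replicate 1 (adjusted p = 0.236), medium replicate 2 (0.0883) or medium replicate 3 (0.107), nor SHMT2 without Aconiti high replicate 2 (0.06). With only the libraries compared, 5 members were called for this step. PSAT1, PSPH, SHMT2 and ALDH1L2 were not (adjusted p = 0.18, 0.1, 0.0634 and 0.118), nor was PSAT1 without the low-count filter (0.173). From low to medium, the PHGDH call ended without Aconiti low replicate 1 or 2 or medium replicate 2 or 3 (0.108 to 0.199). The PYCR1 call there ended without low replicate 1 or 2 or medium replicate 3 (0.0885 to 0.108). At 14.4 µg/mL only ASNS and PSAT1 had risen against vehicle (0.0695% of all genes), although 8 members lay above it without overlap (7.99% of all genes). That count of 2 was 0 without Aconiti low replicate 3, vehicle replicate 1 or vehicle replicate 3 and 1 without Aconiti low replicate 1 or vehicle replicate 2. It was also 0 with only the libraries compared and without the low-count filter, and DESeq2 called 4, adding MTHFD2 (adjusted p = 0.0412) and PCK2 (0.0221).

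With Yijung-tang, ASNS, PSAT1 and MTHFD2 were higher at the medium than at the high dose. No member was higher at 500 than at 100 µg/mL and 3 were lower (0.568% of all genes): ASNS fell by 0.31, PSAT1 by 0.30 and MTHFD2 by 0.32 on the log2 scale (adjusted p = 0.0127, 0.000593 and 0.000338). In each of these 3 the libraries of both doses did not overlap. The ASNS call ended without Yijung-tang high replicate 1 (adjusted p = 0.0921), high replicate 3 (0.14) or medium replicate 1 (0.15). With only the libraries compared, all 3 calls ended (adjusted p = 0.799 for ASNS, 0.761 for PSAT1 and 0.665 for MTHFD2). PCK2 was also lower without overlap but did not pass (log2 fold -0.36, adjusted p = 0.157), and SHMT2 was level (0.013 ± 0.098, adjusted p = 0.999). Against 20 µg/mL, 7 members were higher at the medium dose (3.31% of all genes) and 3 at the high dose (2.64%). The first count was 4 without Yijung-tang medium replicate 1, and the second was 6 without Yijung-tang high replicate 3 or low replicate 1. At 20 µg/mL no member lay above vehicle without overlap (5.34% of all genes did), and 0 members differed from vehicle by edgeR (0.0116% of all genes), 0 had an unadjusted p below 0.05, and DESeq2 called 0.

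The Yijung-tang counts against vehicle also depended on libraries of other groups, which share the estimate of spread. At the high dose 4 members rose, 7 did without Yijung-tang high replicate 3, and 7 did in the shared fit without Citri Unshius Pericarpium medium replicate 1. At the medium dose that last fit called 9 members, and leaving out Yijung-tang medium replicate 1 called 5. DESeq2 called 7 members at the high and 8 at the medium dose.

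**Figure D4:**
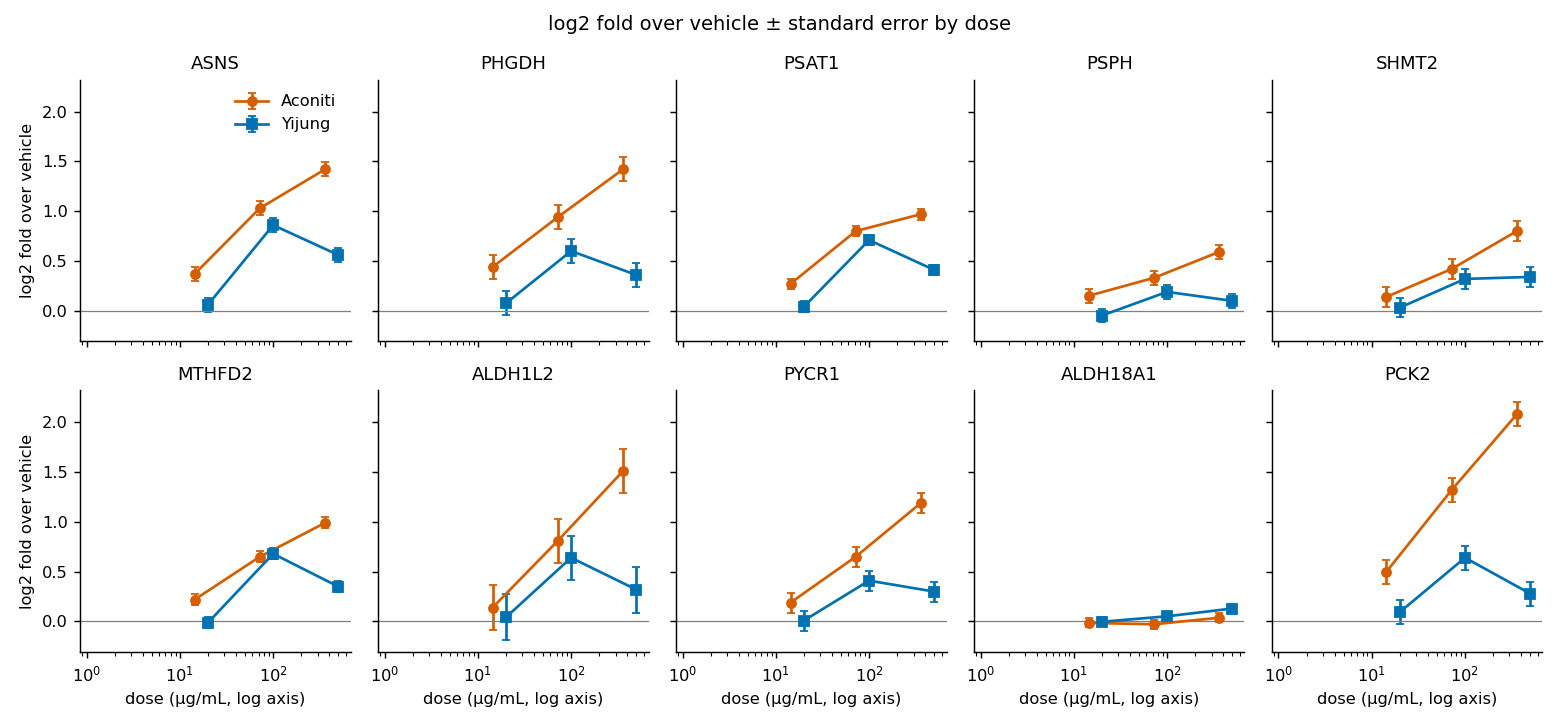
Log2 fold over vehicle with its standard error (vertical axis) by dose in µg/mL (log axis) for each gene with Aconiti (circles) and Yijung-tang (squares). In 9 panels the Aconiti line climbs to 360 µg/mL, and in 8 of these the Yijung-tang line is highest at 100 µg/mL; the SHMT2 squares are level from 100 to 500 µg/mL and those of ALDH18A1 reach at most 0.13.

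Tested as a difference, a comparison chosen after seeing the data, the step from medium to high dose was larger with Aconiti than with Yijung-tang in 8 members (3.46% of all genes), with SHMT2 and ALDH18A1 not called. Set side by side, the high dose of Aconiti (360 µg/mL) stood above the high dose of Yijung-tang (500 µg/mL) in 9 members (14.9% of all genes), by 0.46 (SHMT2) to 1.80 (PCK2) on the log2 scale. At the medium doses (72 and 100 µg/mL) only PCK2 was called higher with Aconiti (log2 0.68 ± 0.11, adjusted p = 3.99e-05; 5.21% of all genes), with 83.54 to 93.91 CPM against 47.14 to 66.58 CPM. Without Yijung-tang medium replicate 1, ASNS, PHGDH and PYCR1 were called as well, 4 in all. For PSAT1 the 95% interval of the fold between the medium doses was 0.987 to 1.14, and for SHMT2 0.934 to 1.22. Yijung-tang and Aconiti carry different set labels, so set and extract cannot be told apart in these differences.

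Within a set, the extracts next to Aconiti and Yijung-tang stood lower. Bupleuri Radix at 500 µg/mL was below Aconiti at 360 µg/mL in 9 members (11.2% of all genes), from -0.51 (PSPH) to -1.70 (PCK2) on the log2 scale. Yijung-tang at 500 µg/mL was above Banhasasim-tang at the same dose in 4 members (2.6% of all genes): ASNS by 0.42, SHMT2 by 0.34, MTHFD2 by 0.29 and PSAT1 by 0.26. The SHMT2 call ended without any 1 of Yijung-tang high replicates 1 and 2 or the 3 Banhasasim-tang high libraries (adjusted p from 0.0602 to 0.257). With only the libraries compared, the PSAT1, SHMT2 and MTHFD2 calls ended (adjusted p = 0.0933, 0.106 and 0.0646). Without the low-count filter, those of PSAT1 (0.0709) and SHMT2 (0.0702) did.

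No member was called against vehicle with Citri Unshius Pericarpium, Cimicifugae Rhizoma, Bupleuri Radix or Banhasasim-tang at any of 3 doses in the shared edgeR fit, and DESeq2 also called 0 in each. Other edgeR fits did call members at the high doses. With only the libraries compared, ASNS, PHGDH and PCK2 were called with Cimicifugae Rhizoma (adjusted p = 0.0054, 0.000342 and 0.000419), and ASNS, PHGDH, PYCR1 and PCK2 with Bupleuri Radix (0.0205, 0.00153, 0.0281 and 0.00208). With a term for the length balance, ASNS, PHGDH, ALDH1L2 and PCK2 were called with each, 4 and 4, and 1 member with Banhasasim-tang. Shares of all genes called in these other fits are not given here, and those that follow are of the shared fit. The shares of all genes called in either direction were small as well: 0.0463%, 0.0174% and 0.00579% at the high, medium and low doses of Citri Unshius Pericarpium, 1.96%, 0.0347% and 0.0116% of Cimicifugae Rhizoma, 0.712%, 0% and 0% of Bupleuri Radix, and 0.185%, 0% and 0% of Banhasasim-tang. Members with an unadjusted p below 0.05 numbered 1, 0 and 0, then 3, 1 and 2, then 4, 2 and 0, and then 1, 0 and 0 in the same order. Bupleuri Radix at the high dose had the 4, which were ASNS, PHGDH, PSAT1 and PCK2, and Cimicifugae Rhizoma at the high dose the 3, which were ASNS, PHGDH and PCK2. All of these were higher than vehicle. Others were lower: MTHFD2 at Citri Unshius Pericarpium high and Cimicifugae Rhizoma medium (log2 -0.13 and -0.14). At Cimicifugae Rhizoma low, PSAT1 and MTHFD2 were lower (-0.12 and -0.11). Shares of all genes at an unadjusted p below 0.05 are not given here for any comparison.

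PCK2 shows the size of these small differences. It stood at 49.69, 44.98 and 45.85 CPM with Bupleuri Radix and at 48.13, 47.8 and 43.84 CPM with Cimicifugae Rhizoma, both at the high dose. All 6 libraries lay above vehicle, with log2 folds of 0.38 and 0.37 (adjusted p = 0.127 and 0.09 in the shared fit). With only the libraries compared both passed, at folds of 0.37 and 0.37 (adjusted p = 0.00208 and 0.000419), and also with a term for the length balance (0.00664 and 0.00059). The 95% intervals of the fold reached 1.53 and 1.52, so rises of the size seen at the high dose of Aconiti lie outside them. Over the 36 libraries of the 4 extracts, ASNS ranged from 110.2 to 148.9 CPM with a median of 124.9, PSAT1 from 317.2 to 391.7 with a median of 344.6 and ALDH18A1 from 84.18 to 100.3 with a median of 93.82. Counted by library, MTHFD2 lay below every vehicle library in 24 of the 36 and above every one in 8. PHGDH lay above in 27 and below in 3, and PSAT1 above in 13 and below in 15. The 36 come from different extracts and doses, so they are not replicates of a single condition. All are set against the same 3 vehicle libraries, and the share of all genes is not given here.

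Between doses of these extracts, Cimicifugae Rhizoma had 2 members higher at the high than at the low dose (0.625% of all genes), ASNS by 0.27 and PSAT1 by 0.20 on the log2 scale (adjusted p = 0.0331 and 0.0489). ASNS went from 115.9, 130.2 and 110.2 CPM at 20 µg/mL to 146.1, 139 and 145.8 CPM at 500 µg/mL without overlap. The count was 1 without Cimicifugae Rhizoma low replicate 2, and 0 without any other 1 of the 6 libraries compared. High and low doses of Citri Unshius Pericarpium, Bupleuri Radix and Banhasasim-tang had 0 members called by edgeR and by DESeq2 (0.0232%, 0.353% and 0.127% of all genes in either direction), with 0, 3 and 1 members at an unadjusted p below 0.05. At the high dose Citri Unshius Pericarpium and Cimicifugae Rhizoma differed in 0 members by edgeR (0.689% of all genes), 4 at an unadjusted p below 0.05 and 1 by DESeq2.

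Bojungikgi-tang, had 1 library per dose and no test. ASNS was 127.5, 117 and 115.8 CPM at the high, medium and low doses, PHGDH 75.4, 66.37 and 68.74 CPM and PSAT1 357.7, 324 and 320.9 CPM. ALDH1L2 was above the vehicle range of 20.68 to 22.85 CPM at each dose, with 27.17, 24.4 and 23.36 CPM. MTHFD2 was below its vehicle range of 301.5 to 309.9 CPM at each dose, with 295.7, 278.5 and 272.9 CPM, and PSPH below its range of 40.35 to 42.68 CPM, with 37.55, 37.06 and 39.05 CPM. PCK2 was 40.09 CPM at the high dose, above the vehicle range, and 34.63 and 33.89 CPM at the medium and low doses, below it. These differences have no replicate check.

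In the order of the 22 group means, Aconiti high was first for 9 members, and Aconiti high, Aconiti medium and Yijung-tang medium were the 3 highest for 8 of them. MTHFD2 had Yijung-tang medium (458.6 to 525.7 CPM) ahead of Aconiti medium (472.2 to 492.2 CPM), neighbours that overlapped. SHMT2 had Yijung-tang high just ahead of Yijung-tang medium, also overlapping. ALDH18A1 was highest with Yijung-tang high, then Bupleuri Radix high and Yijung-tang medium, and these last 2 groups overlapped with vehicle. The next values are a description over 19 group means, which include vehicle and hold several doses of each extract. Over them, the correlation of a member with the mean of the other 9 was 0.898 (ALDH1L2) to 0.986 (ASNS) for 9 members and 0.35 for ALDH18A1.

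Genes of neighbouring pathways, given from lists chosen with earlier results of these data known, are read beside the shares of all genes tested: at the high dose of Aconiti 17% rose and 15.7% fell. Of 14 tested genes of folate and one-carbon metabolism outside the 10, 3 rose and 3 fell at the high dose of Aconiti, with a median log2 fold of 0.05. Among them was MTHFD1L, the mitochondrial enzyme that releases formate (53.74 ± 0.565 to 80.64 ± 3.27 CPM, SD, n = 3; log2 0.59, adjusted p = 5.8e-11), and FPGS, which adds glutamate to folate (log2 0.61). SFXN1, a mitochondrial serine carrier, fell by 0.29 on the log2 scale (136.3 ± 4.25 to 111.4 ± 2.78 CPM; adjusted p = 4.9e-08). At the medium doses of Aconiti and of Yijung-tang 1 of the 14 rose in each (1.64% and 4.01% of all genes rose), MTHFD1L both times (log2 0.28 and 0.31). Cytosolic SHMT1, the counterpart of SHMT2, did not pass at the high dose of Aconiti (log2 fold 0.07).

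Of the 4 glycine cleavage genes, GLDC and DLD fell at the high dose of Aconiti by 0.37 and 0.23, and AMT rose by 0.66 from a level of 0.988 CPM. Of 7 methionine cycle and transsulfuration genes, CBS, which joins serine to homocysteine, rose from 24.74 ± 0.611 to 85.71 ± 5.69 CPM (SD, n = 3; log2 1.79, adjusted p = 1.68e-24), and MTR, methionine synthase, fell by 0.53 (adjusted p = 0.0397). CBS also rose at the medium doses of Aconiti (log2 1.04) and Yijung-tang (0.53). Of the 7, 1 also rose and 0 fell at the low dose of Aconiti (0.0695% of all genes rose) and at the high dose of Yijung-tang (3.76%). The same counts were found at the high doses of Cimicifugae Rhizoma and Bupleuri Radix, where 187 and 78 of 17268 genes rose. Of 11 genes of proline, glutamate and aspartate outside the 10, 3 rose and 2 fell at the high dose of Aconiti, beside 17% and 15.7% of all genes. GPT2, the mitochondrial alanine aminotransferase, rose by 1.37 and GOT1, the cytosolic aspartate aminotransferase, by 0.95. ALDH4A1, which acts in proline breakdown, fell at the medium dose of Yijung-tang from 27.06 ± 1.36 to 17.45 ± 1.65 CPM (log2 -0.63, adjusted p = 3.11e-05), where 3.83% of all genes fell. At the high dose of Cimicifugae Rhizoma 1 of the 11 rose and 0 fell.

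The other 2 lists hold ATF4 pathway regulators and the cytosolic aminoacyl-tRNA synthetases, which charge transfer RNAs. Of 14 regulators, 12 rose at the high and 10 at the medium dose of Aconiti, and 10 at both the medium and the high dose of Yijung-tang, with median log2 folds of 1.56, 0.63, 0.63 and 0.36, where 17%, 1.64%, 4.01% and 3.76% of all genes rose. None of the 14 fell. At the high dose of Cimicifugae Rhizoma 1 of the 14 rose and 0 fell, where 187 of 17268 genes rose. At the high dose of Aconiti TRIB3, a pseudokinase that binds ATF4, rose by 2.64 (66.57 ± 3.91 to 414.4 ± 44.2 CPM), DDIT3, the stress factor CHOP, by 2.56, SESN2 by 2.07 and CHAC1, which breaks down glutathione, by 2.06. ATF4 itself rose by 0.61, 0.51, 0.45 and 0.34 in the same 4 groups. Of 20 synthetases 11 rose and 2 fell at the high dose of Aconiti (17% and 15.7% of all genes), led by SARS1 (1.11), AARS1 (0.94), GARS1 (0.89) and CARS1 (0.79). At the medium doses 9 rose with Aconiti (1.64% of all genes) and 10 with Yijung-tang (4.01%).

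**Figure D5:**
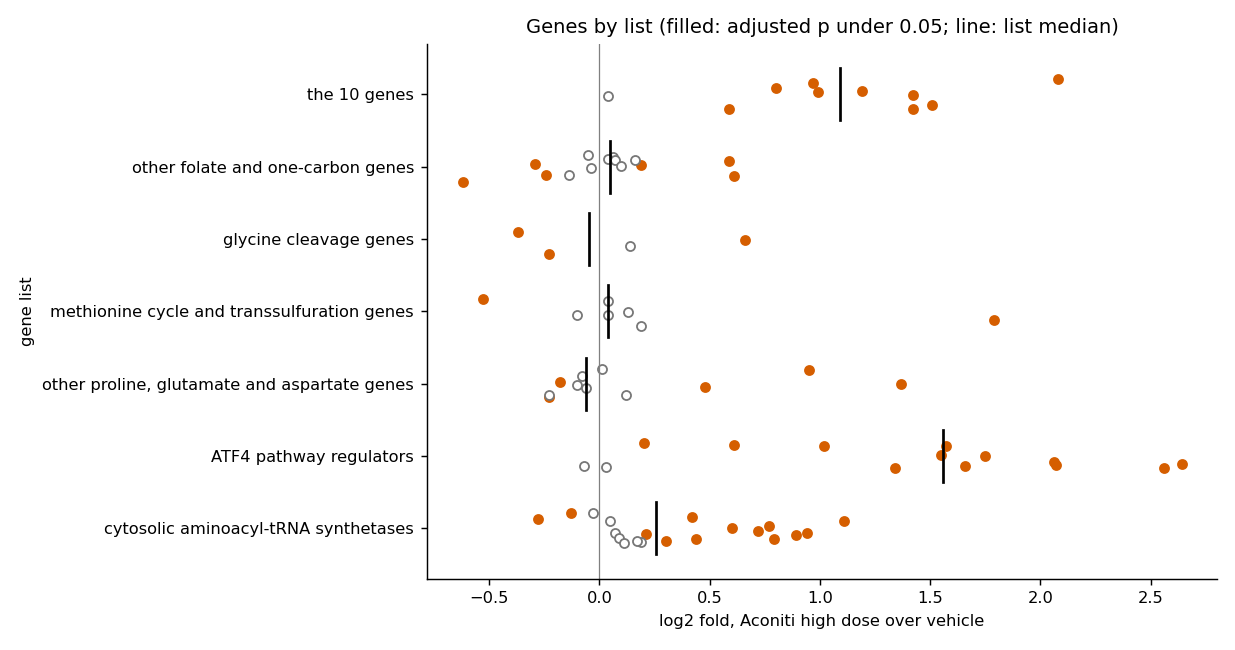
Log2 fold at the Aconiti high dose over vehicle (horizontal axis) of each gene (points; filled where the adjusted p was under 0.05 by edgeR) in the 10 genes and 6 other lists (rows), with the median of each list (line). The 10 genes and the ATF4 pathway regulators lie mostly to the right of 0, with medians of 1.09 and 1.56, and the folate, glycine cleavage and methionine lists centre near 0.

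Outside the 10, the genes whose log2 CPM followed the members' mean most closely over the 19 group means were GPT2 (Pearson r = 0.989), GARS1 (0.988), MARS1 (0.987), SLC6A9, a glycine transporter (0.981), YARS1 (0.977) and TSC22D3 (0.976). SLC6A9 stood at 8.505 CPM in vehicle, 27.11 at the high dose of Aconiti and 15.44 at the medium dose of Yijung-tang. TSC22D3 stood at 10.02, 41.9 and 19.38 CPM in the same groups. These correlations describe 19 means that rest mainly on the Aconiti and Yijung-tang groups.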

How the data were processed

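RNA was sequenced from A549 cells after 24 h. Libraries were stranded and made from messenger RNA with integrity numbers over 7, then sequenced in 100 bp pairs, per the labels' protocols. The tools and build were RSEM 1.3.3, STAR 2.7.3a, Trim Galore 0.6.5, FastQC 0.11.9 and GRCh38, per the submitters' processing notes; annotation release and strand setting are not given in the sources used here. The deposited values were expected counts per gene, not normalized, of which 9.37% were not whole. Of 269 sample columns, 60 were used and 209 of other samples were not. Ethanol extracts and the positive control were not analysed here.

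Expected counts were rounded, scaled by TMM and fitted with edgeR 4.0.16 (R 4.3.3, quasi-likelihood) in 1 model of 57 libraries in 19 groups, after the default low-count filter, which kept 17268 genes and left 38 residual degrees of freedom. Adjustment was by Benjamini-Hochberg within each comparison at 0.05. The standard error is the log2 fold over the square root of F, and 95% intervals are 1.96 standard errors either side. CPM values are TMM-scaled, with a prior count of 2 for log2 CPM. Depth of 17793655 to 30188211 counts limits low genes most; intervals cover the spread between libraries. Symbols, lengths and coordinates came from GENCODE 29, which held 57055 of 60675 identifiers and may not be the release counted on; promoters came from RefSeq (GRCh38.p14). The motif letters were chosen after the sequences were seen. The code was tested on simulated data.

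The members and lists were chosen with earlier results of these data known. The 10 genes are always named; of each other list, up to 4 called genes with the largest change at the high or medium dose of Aconiti or Yijung-tang are named, and the rest counted, with ATF4, SHMT1 and the 6 genes most like the members in addition. ATF4 and SHMT1 were named after their values were seen. Some genes that the rule names are not reported here. Alternatives were DESeq2 1.42.0, RLE scaling, no low-count filter, only the libraries compared, a replicate block (replicate number as a term), mitochondrially encoded genes removed, the length balance as a covariate, no Citri Unshius Pericarpium medium replicate 1, and leaving out each replicate. Replicate numbers were not used as pairs in the shared fit: in 0 of 33 comparisons did all 3 correlations of same-numbered libraries exceed 0.1. That bar cannot exclude pairing, and Yijung-tang medium against low gave 0.345, 0.0995 and 0.114. Replicates all differed by more than sampling noise, the closest pair having a chi-square of 2.03 per degree of freedom.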

Additional observations from a re-analysis of the deposited data

Results flagged for a closer look

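The step from the medium to the high dose differed between Aconiti (72 to 360 µg/mL) and Yijung-tang (100 to 500 µg/mL), tested as the difference of the 2 steps in the shared edgeR model. This comparison was chosen after seeing the data, and the doses and set labels of the extracts differ. It was called for 8 of the 10 genes, all with the larger step in Aconiti (3.46% of all genes): ALDH1L2 by 1.02, PCK2 by 1.13, PHGDH by 0.72, ASNS by 0.70, MTHFD2 by 0.66, PYCR1 by 0.66, PSAT1 by 0.48 and PSPH by 0.34 on the log2 scale, with adjusted p from 3.45e-08 (MTHFD2) to 0.0342 (ALDH1L2). ASNS went up by 0.39 with Aconiti and down by 0.31 with Yijung-tang (log2 folds 0.39 and -0.31), with no overlap between doses in either extract. SHMT2 (0.37, adjusted p = 0.109) and ALDH18A1 (-0.013, adjusted p = 0.956) were not called. The ALDH1L2 call ended without Aconiti high replicate 1, medium replicate 2 or 3, Yijung-tang high replicate 2, or Yijung-tang medium replicate 2 or 3, with adjusted p from 0.0725 to 0.154, and the PSPH call without Yijung-tang medium replicate 1 (adjusted p = 0.064). SHMT2 was called without Aconiti high replicate 1 (adjusted p = 0.0393) or Yijung-tang high replicate 1 (0.0305). In the fit of only the libraries compared 4 genes were called.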

How the results depend on the processing

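The counts of called members at the high and medium doses of Aconiti against vehicle were 9 and 9 under each alternative other than leaving out a replicate of the groups compared, and 9 and 7 to 8 with 1 replicate left out. Low doses and small differences depended on the setting. With the length balance as a covariate, the count was 4 for Cimicifugae Rhizoma high, 4 for Bupleuri Radix high, 1 for Banhasasim-tang high, 5 for Aconiti low and 8 for Yijung-tang high against vehicle, 5 and 3 for high against low in Cimicifugae Rhizoma and Bupleuri Radix, 8 for high against low and 6 for high against medium in Yijung-tang, 4 for Citri Unshius Pericarpium against Cimicifugae Rhizoma, both high, and 3 for Aconiti against Yijung-tang, both medium. With only the libraries compared, it was 3 for Cimicifugae Rhizoma high, 4 for Bupleuri Radix high and 0 for Aconiti low against vehicle, 0 for Cimicifugae Rhizoma high against low, 5 for Aconiti high against medium, 0 for Yijung-tang high against medium and 4 for medium against low, 6 for Citri Unshius Pericarpium against Cimicifugae Rhizoma, 1 for Yijung-tang against Banhasasim-tang, and 4 for the difference of dose steps. By DESeq2 it was 4 for Aconiti low, 7 for Yijung-tang high, 5 for Yijung-tang high against low, 1 for Citri Unshius Pericarpium against Cimicifugae Rhizoma and 2 for Aconiti against Yijung-tang at the medium dose. Without the low-count filter it was 0 for Aconiti low, 0 for Cimicifugae Rhizoma high against low and 2 for Yijung-tang against Banhasasim-tang. Without Citri Unshius Pericarpium medium replicate 1 it was 7 for Yijung-tang high, 5 for Yijung-tang high against low, 1 for Citri Unshius Pericarpium against Cimicifugae Rhizoma and 2 for Aconiti against Yijung-tang at the medium dose. RLE scaling and the removal of mitochondrially encoded genes each gave 1 for Citri Unshius Pericarpium against Cimicifugae Rhizoma. The fit of only the libraries compared has fewer samples, and the cause of these shifts was not tested. Shares of all genes called under the alternatives are not given here.

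Replicate numbers are shared between groups but were not used as pairs in the shared fit. Same-numbered libraries had correlations of deviations from -0.212 to 0.356, which do not settle whether the samples were paired. The replicate block gave 2 called members for Aconiti against Yijung-tang at the medium dose, called PHGDH at the high dose of Yijung-tang against vehicle (adjusted p = 0.0475) and gave counts within 1.5 times the reported ones elsewhere.

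With 1 replicate left out, the count ranged from 0 to 2 for Aconiti low, 3 to 7 for Yijung-tang high and 5 to 8 for Yijung-tang medium against vehicle, 0 to 1 for Cimicifugae Rhizoma high against low, 3 to 6, 2 to 4 and 4 to 8 for Yijung-tang high against low, high against medium and medium against low, 8 to 9 and 4 to 6 for Aconiti high against medium and medium against low, 3 to 4 for Yijung-tang against Banhasasim-tang, 1 to 4 for Aconiti against Yijung-tang at the medium dose, and 7 to 9 for the difference of dose steps. Over all single-gene values under the alternatives, 4608 kept their status as called or not called, 107 gained a call and 105 lost one. Of called values, 0 changed sign. Values called in neither fit were not checked for a change of sign. What depth limits was not tested for single members, whose lowest level in any library was 7.77 CPM.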
